A study of Mus musculus with 6 samples.

Results

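Transcripts of 10 genes of Toll-like receptor (TLR) sensing were followed in naive B cells from mouse spleen, between TET2 knockout and wild-type libraries. The genes were taken by name from the 41053 gene names of the count table, and all 10 were found there: the receptors Tlr1, Tlr4, Tlr6, Tlr7 and Tlr9, the receptor-like Cd180 with its partner Ly86, the receptor chaperone Unc93b1, the adaptor Myd88 and the kinase Irak4. RNA was sequenced from 3 libraries labelled TET2 Knock-Out and 3 labelled TET2 Wild-Type, all from strain C57BL/6 with no treatment named, and both genotypes carry the library numbers 2, 3 and 4. The age and sex of the animals, the allele, how Tet2 was deleted and whether each library came from its own mouse are not given in the sources used here, so any p-value reflects differences among libraries that could be technical. TET2 is an enzyme that oxidizes 5-methylcytosine in DNA.

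TLRs are membrane receptors that recognize parts of microbes and pass the signal through TIR-domain adaptors, chiefly MYD88, which assembles with the kinase IRAK4 into the Myddosome and leads to NF-kB and IRF activation. B cells carry both antigen receptors and TLRs, so that microbial nucleic acids and lipids can drive their division and differentiation. TLR1 and TLR6 pair with TLR2 at the cell surface to bind lipopeptides, TLR4 binds lipopolysaccharide, and TLR7 and TLR9 bind RNA and DNA in endosomes, where UNC93B1 delivers them. CD180 resembles the outer part of TLR4, lacks a TIR domain and reaches the B cell surface bound to the protein MD-1, the product of Ly86.

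Library totals lay between 35101788 and 45401781 counts, and the 10 genes took 0.219 to 0.263% of them. Levels are given as CPM, the count scaled to a common library size after TMM normalisation, and, where genes are compared with each other, per kilobase of exon as well. Tet2 itself ranged over 50.04 to 64.8 CPM among the knockout libraries and 56.8 to 83.3 CPM among the wild-type ones, so the genotypes overlapped; counts over all exons do not check a deletion of part of the gene. The B cell identity of the material was clear in every library: 9 marker genes summed to between 19261 and 23797 CPM, led by Ighm and Ms4a1. The 14 macrophage, monocyte and neutrophil markers summed to 28.3 to 39.9 CPM (knockout) and 31.8 to 37.4 CPM (wild type), with Adgre1 and Lyz2 the most abundant and the neutrophil gene Elane at 0 counts throughout. Of the 7 of these that were tested, 1 was positive, with a median log2 change of −0.15; edgeR and limma-voom called 0, DESeq2 called 1, and by edgeR 1 was higher and 2 were lower at an unadjusted p under 0.05. Lyz2 was lower in every knockout library (log2 change −0.59, edgeR adjusted p = 0.221) and Adgre1, listed as Emr1, was higher in every one (0.45, edgeR adjusted p = 0.254). The 10 dendritic cell markers, led by Flt3 and Zbtb46, summed to 7.03 to 7.90 and 5.80 to 7.28 CPM, with 4 of 6 tested positive, a median of 0.18 and 0 called by any of these tools. Itgax, which encodes CD11c, was higher in every knockout library, at 0.984 ± 0.201 CPM against 0.475 ± 0.161 CPM in wild type (SD, n = 3; log2 change 1.03, edgeR adjusted p = 0.247), the 1 gene of that list at an unadjusted p under 0.05. Of the 12 T and NK cell markers, summing to 293 to 322 and 258 to 290 CPM, most came from Cd2 and Lck, and the T cell receptor gene Cd3e had a mean of 0.0561 CPM (knockout) and 0.0266 CPM (wild type). The 4 tested T and NK markers had a median log2 change of 0.61, with 4 of 4 positive; 0 passed the threshold with edgeR, with DESeq2 or with limma-voom, and 2 had an edgeR p under 0.05 before adjustment. Marginal zone and B-1 markers, which mark other B cell subsets of the spleen, summed to 391 to 505 and 433 to 493 CPM. Of the 11 tested, 3 were positive, with a median log2 change of −0.12. The 1 called by edgeR, against 0.404% of all genes, was Plxnd1, which was lower in knockout. At an unadjusted edgeR p under 0.05, 1 was lower (5.51% of all genes) and 2 were higher (7.85%). The higher ones were Cd9 (0.31, edgeR adjusted p = 0.353) and Spn (0.47, edgeR adjusted p = 0.350). The 7 plasma cell markers summed to 583 to 649 and 552 to 663 CPM. Of the 6 tested, 2 were positive, with a median of −0.063 and 0 called by edgeR, DESeq2 or limma-voom. Both had an unadjusted edgeR p under 0.05, where 7.85% of all genes were higher. They were Igj, also named Jchain (log2 change 1.31, edgeR adjusted p = 0.325), and Mzb1 (0.34, edgeR adjusted p = 0.350). The part of cells of these other types in the results that follow was not tested.

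Shared sequence was looked for in 3 pairs of related genes (Tlr1 with Tlr6, Tlr7 with Tlr9 and Tlr4 with Cd180), and was found in the first. Tlr1 and Tlr6 lie next to each other on chromosome 5 (Tlr1 at 64924811 to 64932761 and Tlr6 at 64953106 to 64960048, both on the minus strand, GRCm38). Their coding sequences share an identical run of 229 bases, at bases 1468 to 1696 of the Tlr1 coding sequence (chr5:64925537-64925765) and 1507 to 1735 of that of Tlr6 (chr5:64953828-64954056), read from GENCODE vM21 transcripts. It is shown because a fragment lying inside it cannot be assigned to either gene by sequence:
Tlr1 and Tlr6 shared coding run: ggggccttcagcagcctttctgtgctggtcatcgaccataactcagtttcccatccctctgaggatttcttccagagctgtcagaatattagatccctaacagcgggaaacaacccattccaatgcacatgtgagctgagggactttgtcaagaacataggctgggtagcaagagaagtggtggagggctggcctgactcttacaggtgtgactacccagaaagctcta
Of all 100-base words of the Tlr6 coding sequence, 11.2% also occur in Tlr1, and 11.3% of those of Tlr1 occur in Tlr6. The levels of both genes are therefore less certain. Tlr6 is also the less precise for its lower counts, 299 to 623 a library against 8200 to 11974 for Tlr1. Tlr7 and Tlr9 share no 100-base word, and neither do Tlr4 and Cd180.

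Since TET2 acts on cytosines in CG dinucleotides, the CG content of the promoters is given with the genes. RefSeq promoters (GRCm38.p6, 250 bases before to 50 after a start) were matched by symbol for 7 of the 10 genes, with 10 promoters in all. The median over 32817 promoters was 7 CG dinucleotides, and 94.6% held at least 1. Tlr9 was the gene without any, a count that only 5.4% of promoters share. The promoters of Cd180 held 5 each, those of Tlr6 5 and 7, those of Tlr1 3 and 9, those of Ly86 and Myd88 13 each and that of Irak4 16. Of all promoters, 63.7% held at most 13 and 68.6% at most 16. The 250 bases before the start are shown for the gene without a CG and for a receptor partner and an adaptor above the median, with CG in capitals:
Tlr9 (chr9:106222348-106222597, plus strand): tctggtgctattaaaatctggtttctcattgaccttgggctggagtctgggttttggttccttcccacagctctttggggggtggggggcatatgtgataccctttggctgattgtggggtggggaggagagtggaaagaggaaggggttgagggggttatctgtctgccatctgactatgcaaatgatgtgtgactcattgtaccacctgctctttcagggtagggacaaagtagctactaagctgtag
Ly86 (chr13:37345095-37345344, plus strand): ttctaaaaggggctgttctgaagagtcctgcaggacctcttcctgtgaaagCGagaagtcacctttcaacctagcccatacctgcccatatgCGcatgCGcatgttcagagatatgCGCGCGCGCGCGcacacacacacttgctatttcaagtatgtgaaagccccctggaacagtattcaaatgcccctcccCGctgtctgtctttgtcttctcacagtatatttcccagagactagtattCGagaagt
Myd88 (chr9:119340019-119340268, minus strand): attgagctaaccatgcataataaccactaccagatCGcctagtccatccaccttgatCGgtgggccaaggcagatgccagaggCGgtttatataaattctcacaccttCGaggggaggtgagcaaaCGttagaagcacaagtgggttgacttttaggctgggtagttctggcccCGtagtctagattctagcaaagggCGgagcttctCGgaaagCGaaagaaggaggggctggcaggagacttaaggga
An interferon-response-like motif, GAAA repeated after 2 bases of any kind, on either strand, occurred in 3.4% of all promoters; among these 10 it was found in Myd88, starting 40 bases before the start, and as 2 overlapping matches in 1 promoter of Tlr6. The Myd88 match is shown with the motif in capitals, and it contains a CG:
Myd88 motif: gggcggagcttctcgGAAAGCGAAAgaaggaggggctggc
The ETS-type core GAGGAA, on either strand, occurred in 28.3% of all promoters and was found in those of Tlr9 (2 matches) and 1 of Tlr1. These matches describe the letters in the window and were not tested for binding.

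In wild-type cells the transcripts differed widely in level per kilobase. Unc93b1 was the most abundant with 347 ± 21.996 CPM per kilobase of exon (mean ± SD, n = 3), above 99.4% of the 13604 tested genes, and Ly86 followed with 272 ± 74.6. The libraries of these genes overlapped, so their order is not set. Tlr1, at 98.6 ± 3.85, and Cd180, at 87.0 ± 8.65, came next and also overlapped each other. Tlr9 stood by itself at 49.1 ± 3.12, and Tlr7 (19.3 ± 2.72) and Myd88 (17.6 ± 0.927) overlapped below it. Irak4 was at 9.45 ± 0.421, and Tlr4 (5.63 ± 1.19) and Tlr6 (5.03 ± 0.260) were the lowest, with overlapping libraries, above 45.8 and 43.4% of tested genes. The knockout libraries gave the same order except that Cd180 (102 ± 25.1) stood above Tlr1 (84.6 ± 5.82), with overlap between them.

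**Figure D1:**
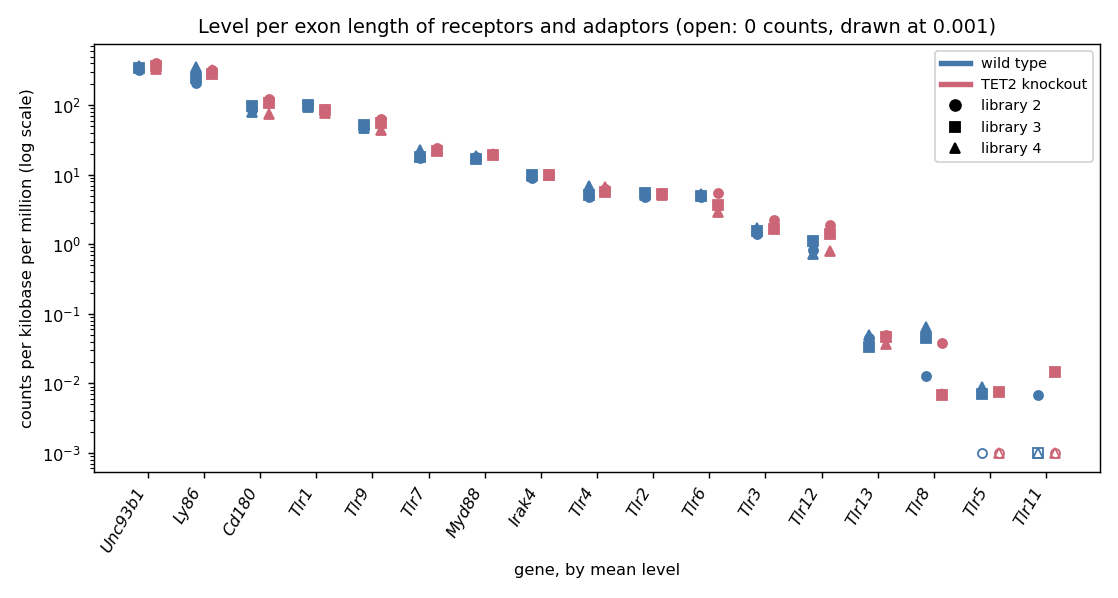
CPM per kilobase of exon (vertical, log scale) in each of the 6 libraries for the 10 genes and the other Toll-like receptors, ordered by mean level; colour gives the genotype and shape the library number, and open symbols are libraries with 0 counts. Unc93b1 and Ly86 lie highest, Tlr2 lies near Tlr4 and Tlr6, and Tlr5, Tlr8, Tlr11 and Tlr13 lie far below all of the 10.

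Of the 7 other Toll-like receptors, 3 passed the filter on low counts: Tlr2, the partner of TLR1 and TLR6, Tlr3, a sensor of double-stranded RNA, and Tlr12, a sensor of profilin. Tlr2 was at 14.3 to 16.6 CPM in the 6 libraries. Tlr5, Tlr8, Tlr11 and Tlr13 had at most 9 counts in any library. The TLR4 co-receptor gene Ly96 (MD-2) was at 2.81 to 4.37 CPM and Cd14 at 0.0682 to 0.286 CPM, that is 3 to 10 counts a library. Tlr4 and Ly96 transcripts were thus both present, and Cd14 was close to the level of 3 counts.

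No member of the group of 10 passed the test between genotypes. All 10 passed the filter on low counts, and edgeR's quasi-likelihood test with Benjamini-Hochberg adjustment called 0 of them at an adjusted p under 0.05, where it called 0.404% of all tested genes; DESeq2 called 0 (2.57% of all genes) and limma-voom 0 (0.353%). At an unadjusted p under 0.05 there were 2 of 10, Tlr1 lower and Tlr7 higher in knockout, against 13.4% of all genes (5.51% lower and 7.85% higher). The log2 change was positive for 8 of 10, against 48.8% of all genes, with a median of 0.14 (all genes −0.0051). Without wild-type library 2 the median was 0.040 and without knockout library 2 it was 0.067. For 3 of 10 the genotypes did not overlap, Tlr1 being lower and Myd88 and Irak4 higher in every knockout library, against 18.5% of all genes (8.28% lower and 10.2% higher). The median change of the 9 B cell markers was 0.13, with 8 of 9 positive, so a shift of this size was also seen in B cell genes outside TLR sensing. In bulk RNA, fewer cells with a transcript and less transcript per cell cannot be told apart.

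**Figure D2:**
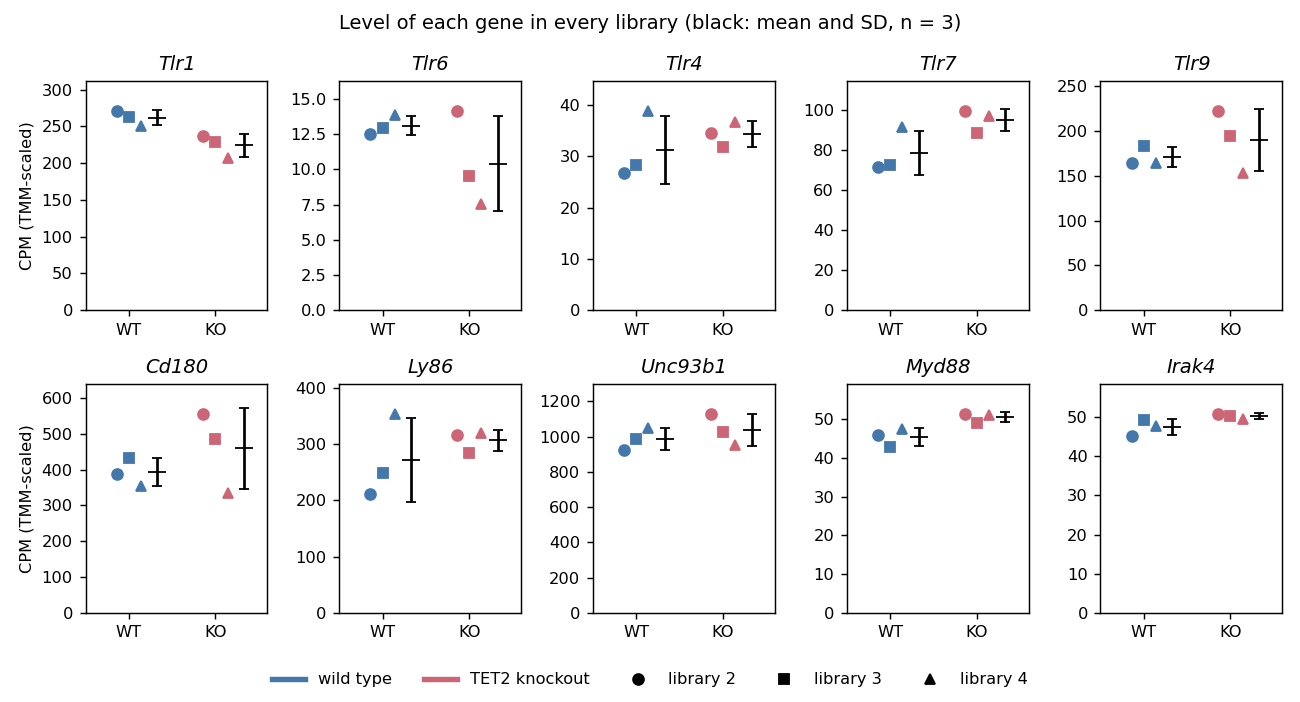
CPM of each of the 10 genes (vertical, from 0) in wild type (WT) and knockout (KO), with 1 symbol per library and the mean with SD in black. Tlr1, Myd88 and Irak4 are the genes whose genotypes do not overlap, and Cd180 and Ly86 show the widest spread between libraries of 1 genotype among the abundant genes.

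Among the surface receptors, Tlr1 stood at 237, 229 and 207 CPM in knockout (libraries 2, 3 and 4, the order kept for every gene) and at 271, 263 and 250.9 CPM in wild type. Every knockout library lay below every wild-type library. The log2 change was −0.22 (SE 0.08, 95% interval −0.39 to −0.05; edgeR adjusted p = 0.277), or 0.858-fold. Tlr6 was at 14.1, 9.53 and 7.56 CPM in knockout and at 12.5, 12.9 and 13.8 CPM in wild type. Knockout library 2 stood above all of wild type and the other two stood below it, so the mean log2 change of −0.33 (95% interval −0.79 to 0.13, edgeR adjusted p = 0.510) rests on libraries on both sides of wild type. Tlr4 was at 34.6, 31.7 and 36.6 CPM in knockout and at 26.7, 28.3 and 38.8 CPM in wild type. Wild-type library 4 was the highest of all 6, and the means of 34.3 ± 2.47 and 31.3 ± 6.60 CPM (SD, n = 3) differed by less than the SD of wild type. The log2 change was 0.14 (95% interval −0.18 to 0.45, edgeR adjusted p = 0.706). Myeloid cells also express Tlr4, and the part of their transcripts, described above, in the Tlr4 level was not tested.

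Tlr7 had the largest positive change among the 10 genes. It was at 99.6, 88.7 and 96.8 CPM in knockout and at 71.8, 72.7 and 91.5 CPM in wild type. Knockout libraries 2 and 4 stood above all of wild type, while library 3 lay below wild-type library 4. The log2 change was 0.27 (SE 0.10, 95% interval 0.04 to 0.51, edgeR adjusted p = 0.317), or 1.21-fold. Tlr7 lies on the X chromosome (167304929 to 167330558, minus strand), and sex-linked transcripts differed between the same libraries: Xist in the 3 knockout libraries was 53.9 to 59.6% of its wild-type mean, and the Y-linked Kdm5d was at 23.3, 34.2 and 34.9 CPM there with at most 2 counts in any wild-type library. Genotype and sex composition therefore cannot be told apart, for Tlr7 or for any other gene compared here, Cd86 included. Tlr9 (chromosome 9, 106222598 to 106226883, plus strand) was at 223, 194 and 153 CPM in knockout and at 164, 183 and 165 CPM in wild type. Its knockout libraries spanned the whole wild-type range, with a log2 change of 0.15 (95% interval −0.13 to 0.43, edgeR adjusted p = 0.621).

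Unc93b1, which carries TLR7 and TLR9 from the endoplasmic reticulum to endosomes, was at 1131, 1028 and 954 CPM in knockout and at 926, 985 and 1051 CPM in wild type. The genotypes overlapped (log2 change 0.07, edgeR adjusted p = 0.763), and the 95% interval of the fold, 0.911 to 1.21, was narrower in ratio than that of Tlr7 or Tlr9. Its level per kilobase was 4.504, 4.66 and 4.96 times that of Tlr7 and Tlr9 summed in knockout libraries 2, 3 and 4, and 5.02, 4.92 and 5.30 times in wild type. The ratio was lower in each knockout library than in the wild-type library of the same number, but the groups overlapped and an exact permutation test on log2 ratios, two-sided, gave p = 0.2 (adjusted 0.667 over 4 ratios), where 3 against 3 libraries cannot go below 0.1. The ratio of Tlr9 to Tlr7 was 2.62, 2.57 and 1.85 in knockout and 2.69, 2.96 and 2.11 in wild type (exact permutation p = 0.5, adjusted 0.667). Library 4 had the lowest ratio of Tlr9 to Tlr7 in both genotypes.

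Cd180 and Ly86, whose proteins form 1 receptor complex, were not called and stood at opposite ends in the libraries numbered 4. Cd180 (chromosome 13, 102693558 to 102739629, plus strand) was at 557, 487 and 336 CPM in knockout and at 388, 433 and 356 CPM in wild type, a log2 change of 0.23 (95% interval −0.14 to 0.60, edgeR adjusted p = 0.573). Knockout library 4 was the lowest of all 6 and the other knockout libraries were the highest. Ly86 (chromosome 13, 37345345 to 37419036, plus strand) was at 316, 284 and 319 CPM in knockout and at 211, 248 and 354 CPM in wild type, a change of 0.18 (95% interval −0.19 to 0.55, edgeR adjusted p = 0.671). Here library 4 was the highest within each genotype.

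The ratio of Cd180 to Ly86 per kilobase followed the library number and not the genotype. It was 0.390, 0.379 and 0.233 in knockout libraries 2, 3 and 4, and 0.407, 0.386 and 0.222 in wild type. The genotype difference in log2 ratio was −0.0075 (exact two-sided permutation p = 1). The libraries numbered 4 stood far below libraries 2 and 3 in both genotypes. Of the 10 genes, Cd180 and Tlr1 were below libraries 2 and 3 in both libraries numbered 4 and Ly86 and Tlr4 were above them, where 25.7 and 23.3% of all tested genes were. The ratio of Tlr1 to Tlr6 ran from 16.4 to 26.9 in knockout and from 17.8 to 21.3 in wild type, without separation (exact permutation p = 0.5, adjusted 0.667).

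**Figure D3:**
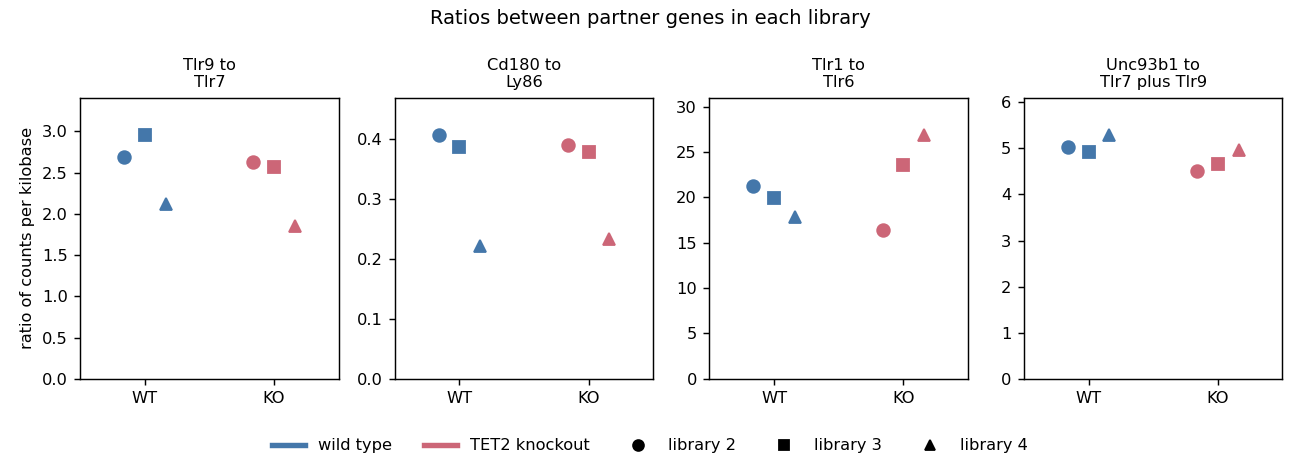
Ratio of counts per kilobase (vertical, from 0) for 4 sets of partner genes in each library, with colour for genotype and shape for library number. The ratio of Cd180 to Ly86 is 0.233 and 0.222 in the libraries numbered 4 and at least 0.379 in the others, whatever the genotype.

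Among the knockout libraries the adaptor and the kinase varied least of the 10 genes, with coefficients of variation of 2.51% for Myd88 and 1.49% for Irak4, against 5.26 and 4.45% in wild type. Myd88 (chromosome 9, 119335934 to 119341411, minus strand) was at 51.5, 49.1 and 51.0 CPM in knockout and at 45.9, 42.9 and 47.6 CPM in wild type. All knockout libraries lay above all wild-type libraries, with a log2 change of 0.15 (SE 0.08, 95% interval −0.02 to 0.33, edgeR adjusted p = 0.422), or 1.11-fold. Irak4 (chromosome 15, 94543643 to 94581815, plus strand) was at 50.9, 50.4 and 49.4 CPM in knockout and at 45.2, 49.4 and 47.8 CPM in wild type. Its genotypes also did not overlap, though by a small margin, and the 95% interval of the fold was 0.944 to 1.19 (edgeR adjusted p = 0.657). Counts were made without strand, and some exon bases are shared with a gene on the opposite strand. These are 290 of 2576 for Myd88 (Acaa1a), 395 of 5021 for Irak4 (Twf1) and 182 of 4509 for Cd180 (Mast4). A fragment over such bases cannot be assigned to either gene by position alone, so these levels are less certain.

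The difference between genotypes was not alike across library numbers for most of the 10 genes. Knockout minus wild type was positive for 9 of 10 in the libraries numbered 2, for 8 of 10 in those numbered 3 and for 3 of 10 in those numbered 4, against 50, 50.7 and 49.9% of all genes, with medians of 0.33, 0.12 and −0.10 on the log2 scale. Myd88, Irak4 and Tlr7 were higher in knockout at all 3 numbers and Tlr1 was lower at all 3, where 22% of all genes were higher and 21.3% lower at all of them. Libraries 2 and 3 alone gave 6 calls, against 24% of all genes (13.6% higher and 10.4% lower): Tlr7 (0.38, edgeR adjusted p = 0.000678), Cd180 (0.35, 0.00584), Ly86 (0.39, 0.00690), Tlr4 (0.27, 0.0192) and Tlr9 (0.26, 0.0242) rose and Tlr1 fell by 0.19 (0.0220), with log2 change and edgeR adjusted p in parentheses. Within the pair numbered 4, Tlr4, Tlr9, Cd180 and Ly86 differed by −0.08, −0.11, −0.08 and −0.15, opposite to this. With a term for the libraries numbered 4 the 1 gene called was Tlr1 (−0.22, edgeR adjusted p = 0.0427), against 4.4% of all genes, and Tlr7 had an adjusted p of 0.0546. Without wild-type library 4, Tlr7 and Ly86 were called (edgeR adjusted p = 0.0202 and 0.0311), against 6.47% of all genes.

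**Figure D4:**
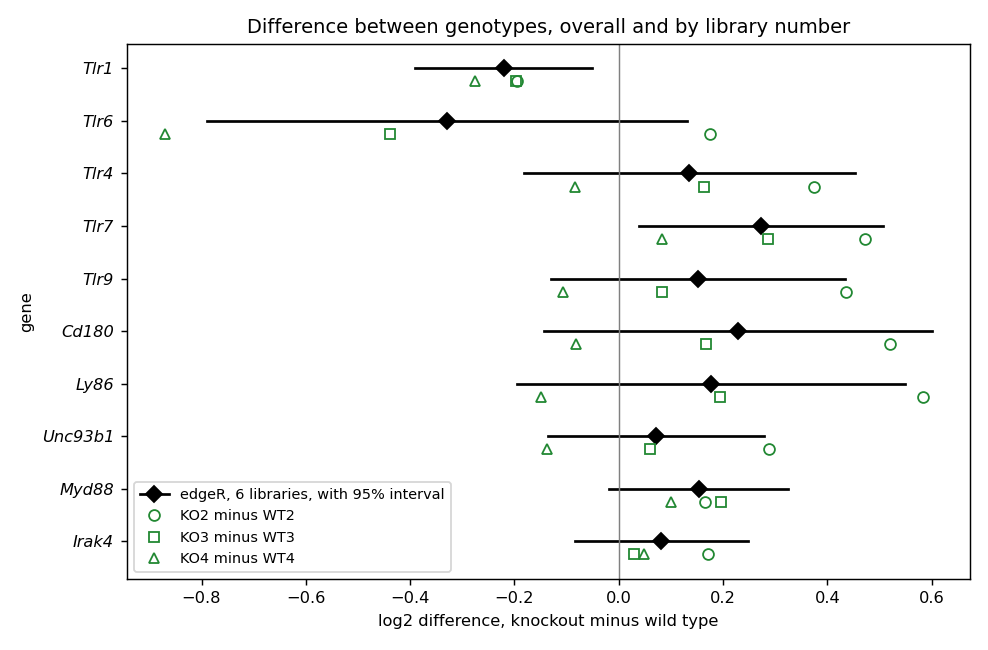
Log2 difference, knockout minus wild type (horizontal), for each of the 10 genes: diamonds with bars are the edgeR estimate over 6 libraries with its 95% interval, and open symbols the difference between libraries of the same number. The triangles of the pair numbered 4 lie to the left of the other pairs for 9 of the 10 genes, and Irak4 is the exception.

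The rest of the pathway was read from 5 lists holding 70 genes, of which 59 were tested and 1 was called (edgeR, DESeq2 and limma-voom alike). The called gene was Cd86, a costimulatory ligand that TLR signals induce: it was at 56.7, 61.8 and 59.9 CPM in knockout and at 28.4, 28.01 and 39.5 CPM in wild type, 0.90 higher on the log2 scale (SE 0.13, edgeR adjusted p = 0.0309). It was the 1 called gene among 12 tested TLR response genes, whose median was 0.0025 with 6 of 12 positive. Cd86 was not called without knockout library 2 or 3 or wild-type library 2 or 3. Among these response genes 2 were higher and 0 were lower at an unadjusted edgeR p under 0.05. The second, Tbx21, was also higher in every knockout library (log2 change 0.82, edgeR adjusted p = 0.254). Dendritic and myeloid cells also express Cd86. Of their tested markers, 4 of 6 dendritic and 1 of 7 myeloid genes were positive, with medians of 0.18 and −0.15. Itgax and Emr1 were higher and Lyz2 lower in every knockout library, with the values given above. The other tested markers of these lists overlapped between genotypes. The part of such cells in the Cd86 difference was not tested. Co-receptors, chaperones and the proteases that trim endosomal TLRs had 9 of 11 tested genes positive, against 48.8% of all genes, and a median of 0.14. In that list 5 of 11 genes were higher in knockout at an unadjusted p under 0.05, against 7.85% of all genes. The protease gene Ctsl was lower in every knockout library (log2 change −0.28, edgeR adjusted p = 0.421). The protease genes Lgmn and Ctsb had the smallest p. Lgmn was at 194 ± 7.88 CPM in knockout against 167 ± 0.897 CPM in wild type (mean ± SD, n = 3; log2 change 0.22, edgeR adjusted p = 0.221), and Ctsb at 142 ± 7.96 against 116 ± 17.6 CPM (0.29, edgeR adjusted p = 0.305). Lgmn was called with the term for the libraries numbered 4.

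By their medians, signalling components lay close to the centre of all genes. TIR adaptors and Myddosome kinases had 9 of 18 tested genes positive and a median of 0.0062, with 0 called (edgeR, DESeq2 and limma-voom) and 1 gene in each direction at an unadjusted p under 0.05. These were Ticam2, the TLR4 adaptor TRAM (0.51, edgeR adjusted p = 0.307), and Traf3, a ubiquitin ligase (−0.18, edgeR adjusted p = 0.318). The genotypes did not overlap for 6 of the 18, against 18.5% of all genes, with Ticam2 among the higher and Traf3 among the lower. Downstream kinases and transcription factors had 6 of 15 positive and a median of −0.020, with 0 called by the same tools and 1 gene in each direction at an unadjusted p under 0.05. Irf7 differed by 0.19 (edgeR adjusted p = 0.363) and Ikbkb, which encodes IKK-beta, by −0.21 (edgeR adjusted p = 0.347). Here the genotypes did not overlap for 2 of the 15, Irf7 being 1 of them. Of the other tested receptors, Tlr3 was at 8.73 ± 1.27 CPM in knockout against 6.86 ± 0.750 CPM in wild type (log2 change 0.35, edgeR adjusted p = 0.372) and Tlr12 at 4.35 ± 1.72 against 2.86 ± 0.660 CPM (0.60, edgeR adjusted p = 0.424), and neither separated the genotypes.

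**Figure D5:**
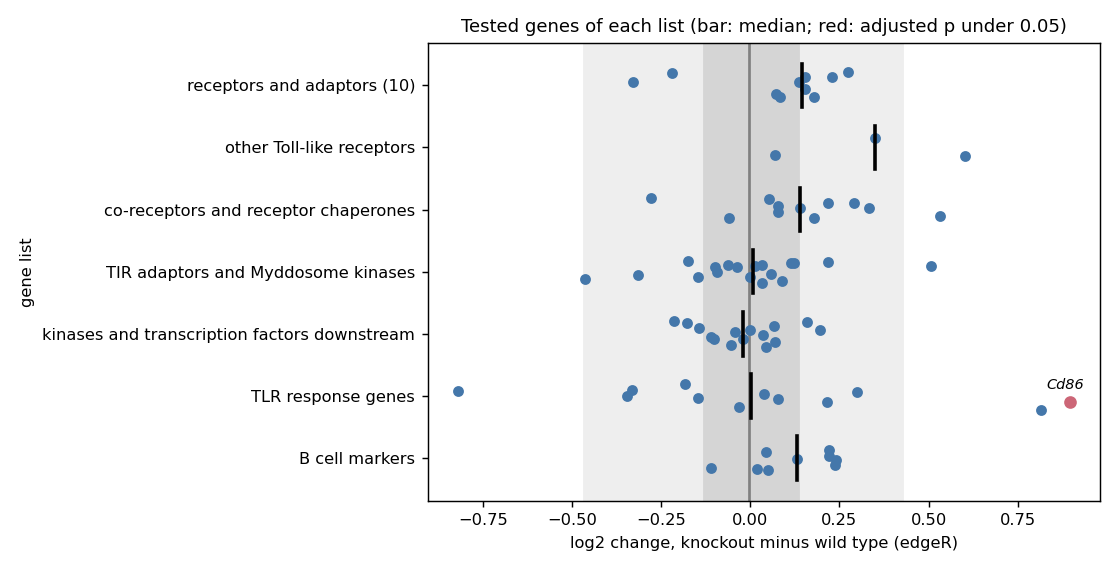
Log2 change, knockout minus wild type (horizontal), of the tested genes of each list (rows), with a black bar at each list's median; the grey bands hold the central 50 and 90% of all tested genes. Cd86, in red, is the 1 gene past the threshold, and the medians of the 10 receptors and adaptors (0.14) and of the B cell markers (0.13) lie close together.

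The genes whose profiles over the 6 libraries came nearest to those of Tlr7 and Tlr1, the members with the smallest p in each direction, were sought among 10522 protein-coding genes by the root mean square difference of mean-centred log2 CPM. For Tlr7 they were Sod1 (0.00989), Polr2g (0.0215) and Ndufa11 (0.0292), where Tlr7 itself varied by 0.187 about its mean. For Tlr1, which varied by 0.130, they were Fbxw4 (0.0287), Sh3bp5 (0.0294) and Zfp810 (0.0382). None of these 6 genes is on chromosome 5 or X, and none was called (edgeR adjusted p at least 0.251). They were picked for values near those of Tlr7 and Tlr1, which were not called, so their tests add no separate evidence.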

How the data were processed

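RNA of splenic naive B cells was extracted with Trizol and RNeasy and made into stranded mRNA libraries, per the labels' protocols. The authors' deposited counts, whole fragments per gene name, came from featureCounts 1.5.1 over exons of GENCODE vM3, paired and without strand or multi-mapping options, per the file headers, after alignment with STAR 2.3.0e to GRCm38.p3, per the submitters' processing notes. Another 6 count columns matched no sample used here and were not used. Exon lengths are those deposited.

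Of 41053 gene names, 13604 passed filterByExpr (minimum count 10) and were tested by edgeR 4.0.16 quasi-likelihood, genotype only, TMM, robust, threshold 0.05 after Benjamini-Hochberg over all tested genes (R 4.3.3, DESeq2 1.42.0, limma 3.58.1). SE is the log2 change over the root of F. The fits were tested on simulated data. The members and lists were chosen with earlier results of these data known. Named were the 10 members, Tet2, Xist and called pathway genes or the 2 with the smallest p in each list. Also named were 3 nearest profiles and the 2 most abundant markers per list. Kdm5d, Ly96, Cd14, Cd3d, Cd3e, Klrb1c, Elane, Itgax, Ctsl, Plxnd1, Cd9 and Spn were added after their values were seen. So were Tlr2, Tbx21 and Igj, and other genes at low counts. The alternatives were other scalings, filters and tools, a replicate block, a term for the libraries numbered 4, libraries 2 and 3 alone, and leaving out each library.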

Additional observations from a re-analysis of the deposited data

How the results depend on the processing

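Each of the 10 members kept the direction of its log2 change under all 15 alternative fits, but the sizes were less steady. With 1 library left out the log2 change ran from 0.0027 (without knockout library 2) to 0.13 (without knockout library 4) for Unc93b1, and between the same settings from 0.019 to 0.29 for Tlr9, from 0.064 to 0.41 for Cd180 and from −0.62 to −0.14 for Tlr6. Without wild-type library 2 and without wild-type library 4 it was 0.025 and 0.42 for Ly86 and 0.032 and 0.32 for Tlr4. For the other members it was 0.21 to 0.40 for Tlr7, −0.26 to −0.17 for Tlr1, 0.11 to 0.19 for Myd88 and 0.048 to 0.10 for Irak4. The number of members past the threshold was 0 in the reported fit, 1 with a term for the libraries numbered 4, 6 in libraries 2 and 3 alone, and 0 to 2 when 1 library was left out. For the pathway genes it was 1 of 59 in the reported fit (0.404% of all genes), 2 of 59 with that term (4.4%), 21 of 60 in libraries 2 and 3 alone (24%) and 0 to 5 with 1 library left out. Leaving out wild-type library 4 gave the highest value for both, and leaving out knockout library 2 or 3 or wild-type library 2 or 3 gave 0 pathway genes. With 1 library left out, the log2 difference in ratio ran from −0.29 to 0.23 for Cd180 to Ly86, from −0.28 to 0.019 for Tlr9 to Tlr7, from 0.0070 to 0.36 for Tlr1 to Tlr6 and from −0.15 to −0.078 for Unc93b1 to its receptors. The log2 difference in the ratio of Tlr1 to Tlr6 was −0.063 in libraries 2 and 3 alone, against 0.16 in all 6. The causes were not tested.

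The same replicate numbers did not show pairing throughout. Deviations from the genotype means correlated over genes by 0.0857 and 0.220 for numbers 2 and 3. Knockout library 2 correlated best with wild-type library 3 (0.239). For number 4 the correlation was 0.394, the highest of any pair. Each library 4 correlated negatively with libraries 2 and 3 of the other genotype (−0.345 to −0.191). For each gene, deviations from a genotype mean cancel out within that genotype. A positive correlation for number 4 therefore forces a negative one with the sum of libraries 2 and 3 of the other genotype. These negative values thus add no separate evidence. What the libraries numbered 4 share was not tested. With a replicate block 0 members and 1 pathway gene were called, and Tlr1 differed by −0.22 and Tlr7 by 0.28. For the ratios, a block by pairs gave the same mean differences, with exact sign-flip p between 0.25 and 1; this was chosen after seeing the data. Tlr6 rests on 299 to 623 counts a library and is the least precise member.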
